A study of Mus musculus with 15 samples.

Results

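The nuclear genes for the subunits of respiratory complex I were described across mouse hearts that carry 1 of 2 mutations of Rbm20, a splicing regulator of heart muscle. The members were all gene symbols that begin with Nduf, go on with a, ab, b, c, s or v and end in a number, which keeps the assembly factors (Ndufaf genes) out. This gave 38 of the 40174 symbols in the deposited count tables. All 38 passed the filter on low counts, and the lowest count of any member in any library was 474, for Ndufa1.

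Complex I is the entry point of the mitochondrial respiratory chain. Its matrix arm oxidises NADH and passes the electrons along iron-sulfur clusters to ubiquinone, and its membrane arm pumps protons across the inner membrane. Core subunits carry these reactions and supernumerary subunits surround them and are needed for assembly and stability. Heart muscle is rich in mitochondria and depends on the complex for most of its ATP supply.

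Total RNA came from left ventricles of C57BL/6 mice at 2 months of age. The groups were G-line HOM (labelled Rbm20 S639G -/-), G-line HET (Rbm20 S639G +/-), A-line HOM (Rbm20 S637A -/-), A-line HET (Rbm20 S637A +/-) and WT, with 3 libraries each by their titles. In all 40174 symbols, the counts titled A-line HOM replicates 2 and 3 equal those titled WT replicates 2 and 3. Each of those libraries was counted once, as WT, so that 13 of the 15 labelled libraries were used and A-line HOM was left with 1. Separate animals are not stated in the labels, and p-values therefore reflect the spread of these libraries, which may be technical.

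Libraries held 12959087 to 29436407 counts. Transcripts of 15 cardiomyocyte marker genes were detected in every library, and their summed level was 160300 to 166000 CPM (read counts expressed per library size after TMM scaling) in G-line HOM, 166200 to 175300 in G-line HET, 170500 in A-line HOM, 153000 to 163900 in A-line HET and 137600 to 159800 in WT. The sum hides opposite changes. In G-line HOM against WT, 10 of the 15 had log2 fold changes below 0 and 5 above (median -0.29). Counts per gene do not show a single base change, and Rbm20 itself ran from 370.2 to 425 CPM in G-line HOM, 366 to 399 in G-line HET, 495 in A-line HOM, 379 to 438 in A-line HET and 357 to 419 in WT. The atrial light chain gene Myl7 reached 45.7 CPM in G-line HOM replicate 1, 239.9 in A-line HET replicate 3 and 524 in WT replicate 2, against at most 3.43 CPM in any other library. The clock gene Arntl reached 24.6 CPM in G-line HOM replicate 1 and was also above 20 CPM in A-line HET replicate 2, against at most 5.27 elsewhere. Mitochondrial ribosomal RNA took 10.8 to 13.5% of the counts in G-line HOM, 15.4 to 16.7% in G-line HET, 15.1% in A-line HOM, 13.2 to 17.1% in A-line HET and 20.2 to 23.4% in WT.

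Subunit genes as a group took 0.602, 0.68 and 0.744% of all counts in the G-line HOM libraries, 0.815, 0.827 and 0.835% in G-line HET, 0.77% in A-line HOM, 0.835, 0.833 and 0.723% for A-line HET, and 0.769, 0.773 and 0.844% in WT. The 3 G-line HOM libraries held the lowest share, the second lowest and the fourth lowest of the 13, with A-line HET replicate 3 between them. Without the mitochondrial ribosomal RNA the share was 0.675 to 0.859% in G-line HOM, against 0.969 to 1.06% in WT, and those groups did not overlap. Per kilobase of principal transcript (GENCODE M21), the mean WT level was highest for Ndufa4 (1076 CPM per kb), Ndufb8 (592) and Ndufb9 (543), and Ndufv1 had 355. It was lowest for Ndufc2 (84.0), Ndufb4 (86.5) and Ndufa1 (87.6), leaving out Ndufb2, Ndufab1, Ndufc1 and Ndufb1, whose transcript length was uncertain or not annotated.

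**Figure D1:**
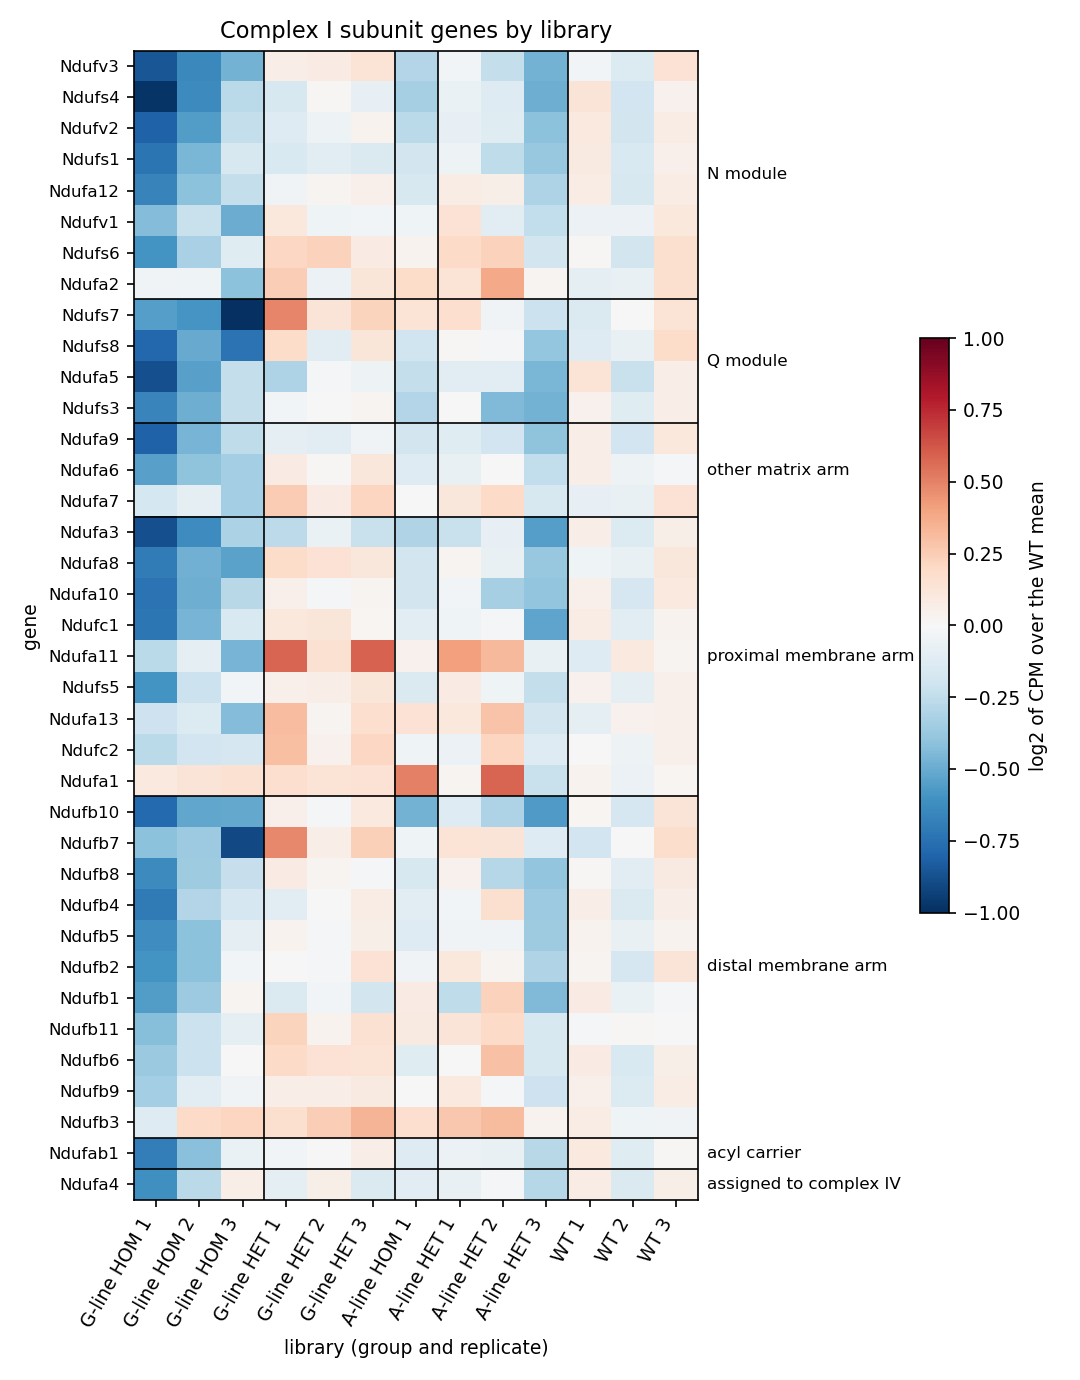
Each row is 1 of 37 complex I subunit genes, grouped by its part of the complex, and each column is 1 of 13 libraries. Colour gives log2 of the CPM over the WT mean of the same gene, from -1 (blue) to 1 (red). The G-line HOM columns are mostly blue and A-line HET replicate 3 is blue in 35 of them, while the G-line HET columns lie near 0.

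In G-line HOM ventricles the subunit genes lay lower than in WT. Of the 38 genes, 22 fell and 0 rose at an adjusted p under 0.05 in edgeR's quasi-likelihood test, against 26.4% of all 17588 genes called in either direction and 13.3% called lower. The log2 fold change was below 0 in 36 of 38, with a median of -0.39 (-23.7%), against 0.01 over all genes tested. It ran from -0.70 for Ndufs7 to 0.13 for Ndufa1. In 26 of the 38 every G-line HOM library lay below every WT library, against 21.1% of all genes. In bulk tissue, fewer cells of a type and less RNA per cell cannot be told apart. The matrix arm had 13 of 16 genes lower (median -0.47) and the membrane arm 8 of 20 (median -0.30). Whether the arms differed was not tested. All 7 core subunit genes fell, and 15 of 30 supernumerary genes did, leaving out Ndufa4.

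This count moved with single libraries. Without G-line HOM replicate 1, the count was 11, without WT replicate 1 it was 13 and without WT replicate 3 it was 10. Without G-line HOM replicate 3 it was 27. With the libraries that carry both titles left out, it was 5, and with them taken as A-line HOM instead of WT it was 1 (Ndufa6). The median over the members was -0.43 under both of these treatments of the shared pair, which leave 1 WT library. Without the 3 libraries that held Myl7 transcripts, 17 genes were lower and the median was -0.34. Without those 2 with high Arntl, 9 were lower and the median was -0.30.

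In the NADH-oxidising tip of the matrix arm (the N module), 6 of 8 genes fell and the median log2 fold change was -0.43. Ndufv1, the subunit that binds FMN and takes the electrons from NADH, had 436, 505 and 419.5 CPM in G-line HOM, against 566, 568 and 636 CPM in WT. All 3 G-line HOM libraries lay below all WT libraries, with a log2 fold change of -0.38 ± 0.11 (SE) and an adjusted p of 0.0202. Its partner Ndufv2, which holds an iron-sulfur cluster, had 159, 188 and 235 CPM in G-line HOM, against 296, 244 and 292 CPM in WT. The highest G-line HOM library stood just under the lowest WT library, and Ndufv2 fell by 0.52 ± 0.13 on the log2 scale (adjusted p = 0.0106). Ndufs1, the largest subunit of the arm, had 404, 487 and 599 CPM in G-line HOM, against 711, 603 and 692 CPM in WT. Here G-line HOM replicate 3 nearly reached WT replicate 2, and the change was -0.43 ± 0.13 (adjusted p = 0.0243).

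Of the 5 supernumerary genes of the N module, 3 fell. Ndufv3, a small accessory subunit of the tip, had 104, 120.2 and 136 CPM in G-line HOM, against 185, 171 and 209 CPM in WT. The groups were well apart, and Ndufv3 fell by 0.65 ± 0.12 on the log2 scale (adjusted p = 0.00127). Ndufs4, whose loss causes a Leigh-like disease in mice, had 89.6, 114 and 146 CPM in G-line HOM, against 193, 154 and 182 CPM in WT. It fell by 0.60 ± 0.16 (adjusted p = 0.0128), with no overlap between the groups. Ndufa12, which joins late in assembly, averaged 107 ± 15.7 CPM in G-line HOM and 144 ± 13.3 CPM in WT (SD, n = 3 each), with an adjusted p of 0.0175. Ndufs6 (log2 fold change -0.33, adjusted p = 0.0807) and Ndufa2 (-0.15, adjusted p = 0.409) did not pass the test, although Ndufs6 had 0.0255 without G-line HOM replicate 3 and 0.047 without WT replicate 2. Several of these calls ended when 1 library was left out. Ndufs1 had an adjusted p of 0.107 without G-line HOM replicate 1, 0.0773 without G-line HOM replicate 2, 0.0897 without WT replicate 1 and 0.0804 without WT replicate 3. Ndufv1 had 0.0621 without G-line HOM replicate 1, 0.063 without G-line HOM replicate 3 and 0.092 without WT replicate 3. Ndufv2 had 0.0524 without G-line HOM replicate 1, and Ndufs4 had 0.055 without WT replicate 1. Ndufa12 had 0.0847 without G-line HOM replicate 1, 0.0674 without WT replicate 1 and 0.0702 without WT replicate 3.

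All 5 genes of the Q module, the part that reduces ubiquinone, fell in G-line HOM, with a median of -0.53. Ndufs7, which holds the last iron-sulfur cluster before ubiquinone, had 62.5, 61.0 and 46.0 CPM in G-line HOM, against 83.0, 91.4 and 101 CPM in WT. No library overlapped, and the log2 fold change of -0.70 ± 0.14 (adjusted p = 0.00181) was the lowest of the 38. Ndufs8, which carries the clusters that lead to it, had 74.4, 90.2 and 76.9 CPM in G-line HOM, against 117, 121 and 146 CPM in WT. It fell by 0.67 ± 0.13 on the log2 scale (adjusted p = 0.00139), again without overlap. Neither call ended when any 1 library was left out. Both ended with the shared pair left out or taken as A-line HOM, treatments that leave 1 WT library.

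Ndufs3 and Ndufa5 of the Q module also fell. Ndufs3, one of the first subunits to enter assembly, had 123, 139.5 and 165 CPM in G-line HOM, against 201, 179.7 and 205 CPM in WT, a change of -0.45 ± 0.13 (adjusted p = 0.0166). Its groups did not overlap. The supernumerary Ndufa5 averaged 163 ± 35.7 CPM in G-line HOM and 235 ± 29.6 CPM in WT (SD, n = 3 each; adjusted p = 0.0221), and its highest G-line HOM library (199 CPM) came close to the lowest WT library (201 CPM). Without G-line HOM replicate 1, adjusted p was 0.0785 for Ndufs3 and 0.088 for Ndufa5. Without WT replicate 3 it was 0.0652 for Ndufs3 and 0.0734 for Ndufa5. Ndufs3 also lost its call without G-line HOM replicate 2 (0.0593) or WT replicate 1 (0.0556), and Ndufa5 without G-line HOM replicate 2 (0.0673) or WT replicate 1 (0.0877).

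Where the matrix arm meets the membrane, 2 of 3 genes fell. Ndufa6, a LYR-motif protein that docks the mitochondrial acyl carrier, had 74.4, 81.7 and 85.6 CPM in G-line HOM, against 113, 104 and 107 CPM in WT. Both groups were tight and far apart, and the change of -0.42 ± 0.09 (adjusted p = 0.00223) was the one call among the 22 that passed under every alternative that was run. Ndufa9, a nucleotide-binding subunit at the junction, had 182, 231 and 267 CPM in G-line HOM, against 334, 279.8 and 342 CPM in WT. It fell by 0.49 ± 0.13 on the log2 scale (adjusted p = 0.0107, and 0.0518 without WT replicate 3), with no overlap. Ndufa7 had a log2 fold change of -0.20 (adjusted p = 0.198). Ndufab1, the acyl carrier itself, averaged 111 ± 24.2 CPM in G-line HOM and 143 ± 10.9 CPM in WT (SD, n = 3 each). Its groups overlapped, its adjusted p of 0.0457 was close to the threshold, and it reached 0.194 without G-line HOM replicate 1. The call of Ndufab1 also ended without G-line HOM replicate 2 (0.13), WT replicate 1 (0.149), WT replicate 3 (0.112), any G-line HET library (0.0587 to 0.0613), A-line HOM replicate 1 (0.0513) or A-line HET replicate 2 (0.0529).

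**Figure D2:**
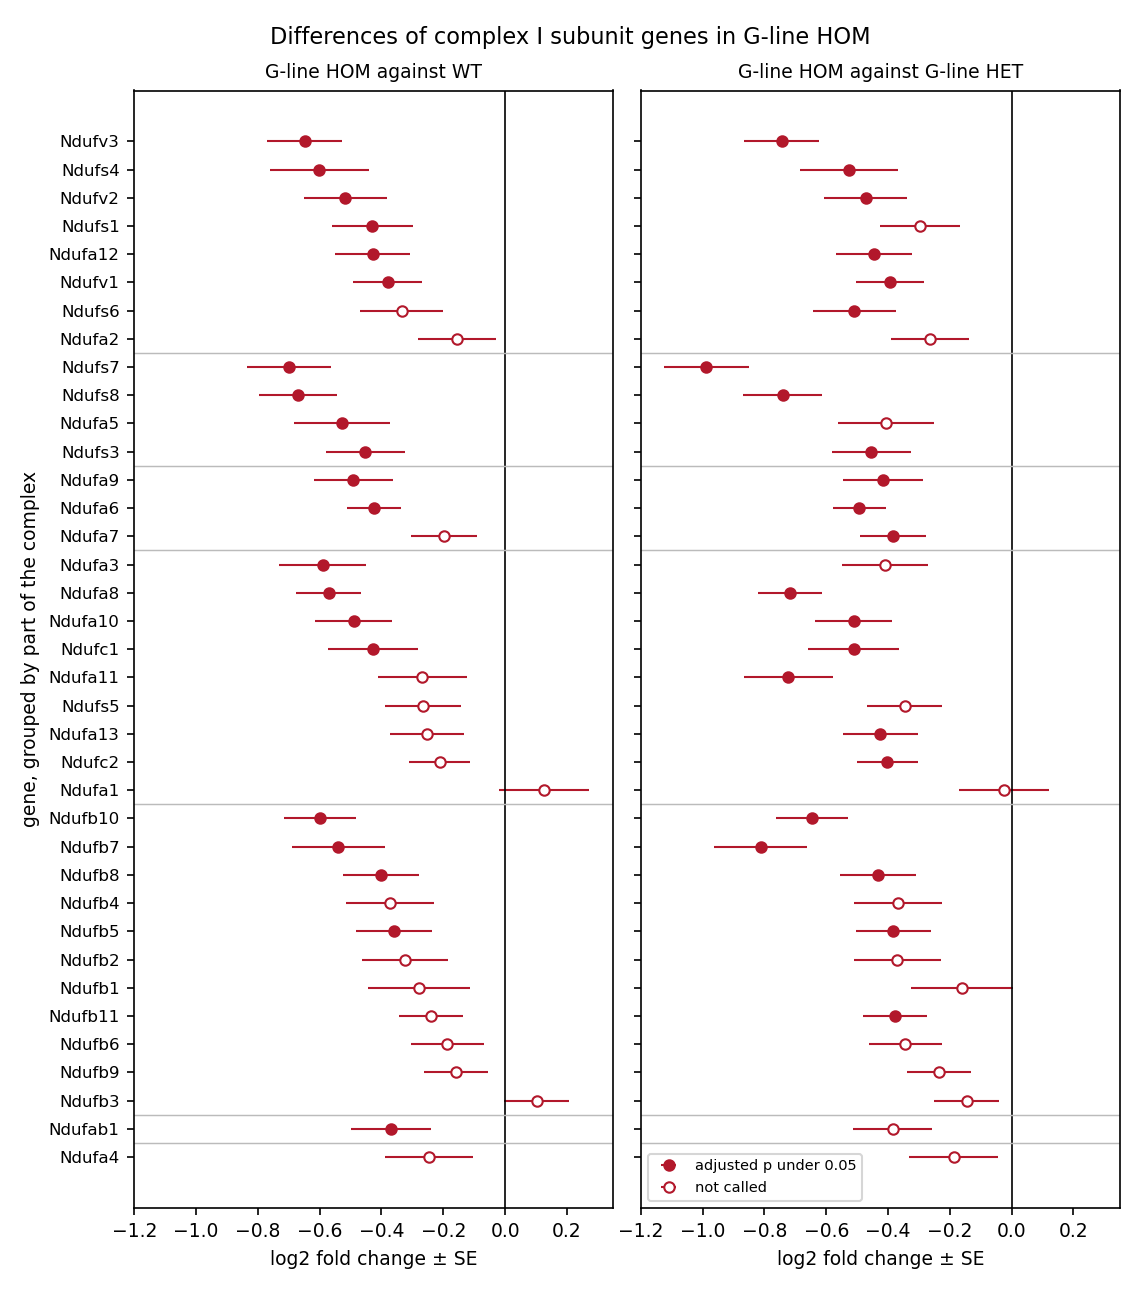
Points give the log2 fold change of each of 37 genes with its SE, in G-line HOM against WT (left) and in G-line HOM against G-line HET (right), grouped by part of the complex. Filled points have an adjusted p under 0.05, which holds for 21 of the genes drawn on the left and 23 on the right. In both panels Ndufs7 is the lowest, and Ndufa1 and Ndufb3 lie nearest to or above 0.

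Proximal membrane-arm genes were lower in 4 of 9 cases (median -0.27). Ndufa8, a disulphide-bonded protein on the intermembrane-space face, had 96.6, 112 and 108 CPM in G-line HOM, against 152, 149 and 169 CPM in WT. The groups were far apart, and its adjusted p of 0.00111, at a log2 fold change of -0.57 ± 0.10, was the smallest of the 38. Ndufa10, a relative of nucleoside kinases on the matrix side, had 260.1, 309 and 358 CPM in G-line HOM, against 449.9, 387 and 465 CPM in WT, a change of -0.49 ± 0.12 (adjusted p = 0.00936). Ndufa3, a small single-span subunit, had 93.6, 111 and 138 CPM in G-line HOM, against 180.1, 157 and 179.5 CPM in WT. It fell by 0.59 ± 0.14 (adjusted p = 0.00651), and neither gene overlapped between the groups. None of these calls ended when any 1 library was left out. With the shared pair left out, Ndufa8 kept its call and Ndufa10 and Ndufa3 did not. With the pair as A-line HOM none of these calls stood. Ndufc1 averaged 75.9 ± 15.2 CPM in G-line HOM and 102 ± 7.03 CPM in WT (SD, n = 3 each; adjusted p = 0.0432). Its call ended without G-line HOM replicate 1 (0.176), G-line HOM replicate 2 (0.12), WT replicate 1 (0.128), WT replicate 3 (0.114) or any G-line HET library (0.0569 to 0.0588). Ndufs5, Ndufa13, Ndufa11 and Ndufc2 had log2 fold changes of -0.21 to -0.27 that did not pass the test, with Ndufs5 at an adjusted p of 0.0232 without G-line HOM replicate 3.

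Ndufa1, a single-span subunit encoded on the X chromosome, stood apart within the membrane arm. The gene overlaps Rnf113a1, and the use of strand in counting is not given, so that its reads cannot be assigned with certainty. Ndufa1 had 39.2, 40.0 and 40.8 CPM in G-line HOM, against 37.6, 35.2 and 37.2 CPM in WT. Each G-line HOM library was above each WT library, but the log2 fold change of 0.13 ± 0.15 did not pass the test (adjusted p = 0.576). The other member above 0 was Ndufb3, a distal subunit, with 101, 126 and 128 CPM in G-line HOM, against 116, 107 and 108 CPM in WT (0.10 ± 0.10, adjusted p = 0.52).

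Distal membrane-arm genes were lower in 4 of 11 cases (median -0.32). Ndufb10, another disulphide-bonded subunit, had 124, 148 and 149 CPM in G-line HOM, against 216, 189.7 and 233 CPM in WT. It fell by 0.60 ± 0.12 on the log2 scale (adjusted p = 0.00165), with no overlap and with no call lost when any 1 library was left out. Its call stood with the shared pair left out and ended with the pair as A-line HOM. Ndufb7, of the same fold class, had 91.0, 93.7 and 64.6 CPM in G-line HOM, against 106, 121 and 136 CPM in WT. These groups were separate as well, with a change of -0.54 ± 0.15 (adjusted p = 0.016, and 0.0753 without WT replicate 3). Ndufb8, whose protein is often used as a marker of assembled complex I, averaged 305 ± 42.7 CPM in G-line HOM and 403 ± 27.2 CPM in WT, and Ndufb5 averaged 207 ± 38.3 and 266 ± 11.3 CPM (SD, n = 3 each). Their adjusted p was 0.0251 and 0.0412. Without G-line HOM replicate 1 it was 0.111 and 0.18, without G-line HOM replicate 2 0.0571 and 0.125, without WT replicate 1 0.0677 and 0.109, and without WT replicate 3 0.0974 and 0.116. Ndufb5 lost its call also without WT replicate 2 (0.0525) or any G-line HET library (0.0546 to 0.0555). Ndufb4, Ndufb2, Ndufb1, Ndufb11, Ndufb6 and Ndufb9 had log2 fold changes of -0.16 to -0.37 that did not pass. Without G-line HOM replicate 3, adjusted p was 0.00985 for Ndufb2, 0.0278 for Ndufb4 and 0.0437 for Ndufb1, and without A-line HET replicate 3 it was 0.0411 for Ndufb4.

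Ndufa4, a symbol of the family whose protein is now assigned to cytochrome c oxidase (complex IV), had the highest level per kilobase of all members. It had 374, 474 and 598 CPM in G-line HOM, against 602, 516 and 596 CPM in WT. The groups overlapped, and the log2 fold change of -0.25 ± 0.14 did not pass the test (adjusted p = 0.233, and 0.0221 without G-line HOM replicate 3).

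The G-line HOM libraries differed among themselves. Relative to the WT mean, the median over the 38 genes was -0.62 in replicate 1, -0.40 in replicate 2 and -0.24 in replicate 3. A-line HET replicate 3 had a median of -0.31, below that of G-line HOM replicate 3, and WT replicate 2 had -0.12. Replicate 1 was the lowest G-line HOM library in 31 of 38 genes, A-line HET replicate 3 the lowest of its group in 38 of 38, and WT replicate 2 the lowest of its group in 29 of 38. These are the 3 libraries with Myl7 above 10 CPM. They also had the highest sums of 5 white fat markers and of 5 mesothelial markers. White fat markers summed to 8.50 CPM in G-line HOM replicate 1, 8.82 in A-line HET replicate 3 and 25.8 in WT replicate 2, against at most 0.571 elsewhere. Mesothelial markers summed to 15.4, 13.3 and 5.90 CPM in the same order, against at most 3.03 elsewhere. The summed level of the 4 atrial muscle markers, which include Nppa, was 4690 to 7998 CPM in G-line HOM, 974 to 2989 in G-line HET, 4344 in A-line HOM, 948 to 4056 in A-line HET and 77.6 to 2393 in WT. Against WT, 3 of these 4 had log2 fold changes below 0 in G-line HOM (lowest Sln, -4.15), and 0 were called lower. Nppa was the 1 above 0 (3.85). Sln had 155 CPM in WT replicate 2 and at most 0.083 CPM in the other WT libraries. The summed level of 8 fibroblast markers was 2084 to 2977 CPM in G-line HOM, 1377 to 2340 in G-line HET, 1603 in A-line HOM, 1437 to 2334 in A-line HET and 976 to 1688 in WT. The 6 erythroid markers summed to 1010, 1083 and 252.5 CPM in G-line HOM, 412 to 597 in G-line HET, 308 in A-line HOM, 321 to 533 in A-line HET and 289 to 388 in WT. The 4 brown fat markers summed to 49.2 to 113 CPM in G-line HOM, 35.2 to 41.7 in G-line HET, 26.7 in A-line HOM, 23.6 to 34.1 in A-line HET and 18.8 to 53.3 in WT, and the defining brown fat gene Ucp1 was at 0 in 9 of 13 libraries and reached 17.9 CPM in WT replicate 2. Only 2 of these 4 passed the count filter, with log2 fold changes in G-line HOM against WT of 4.57 for Dio2 and 0.22 for Cidea. Of the 15 cardiomyocyte markers, 7 fell and 3 rose in G-line HOM against WT (66.7% called, against 26.4% of all genes), with a median log2 fold change of -0.29. The lowest was Ckm, the muscle creatine kinase (-1.69 ± 0.19, adjusted p = 7.57e-05), and the highest Nppa, the atrial natriuretic peptide (3.85 ± 1.20, adjusted p = 0.0462). The part of these marker changes in the lower subunit levels was not tested, and the counts without the Myl7 libraries are given above.

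**Figure D3:**
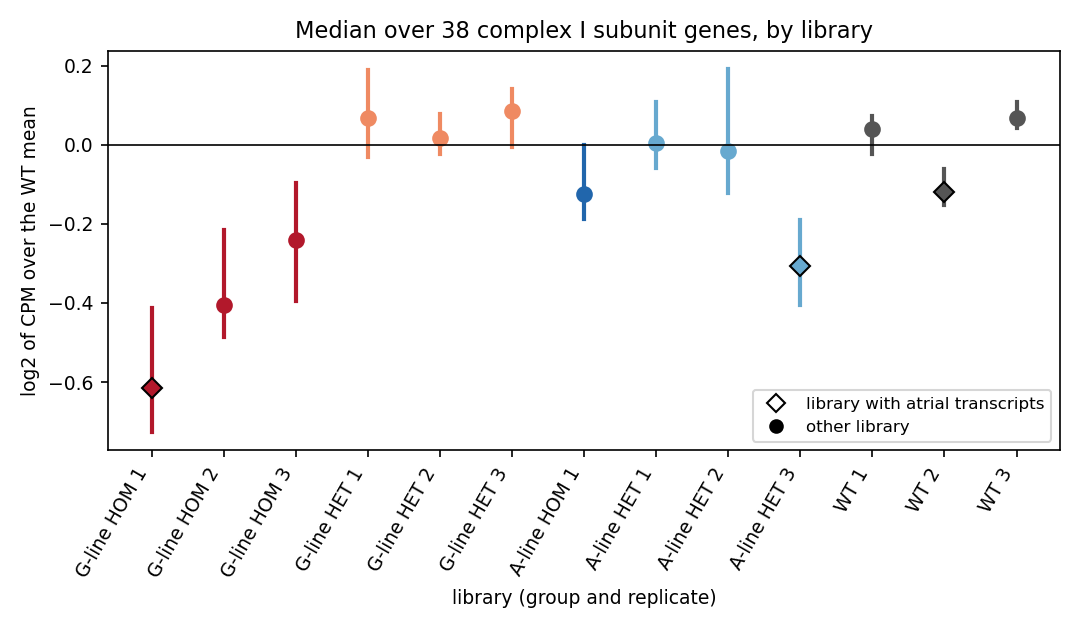
Points give, for each of 13 libraries, the median over 38 complex I subunit genes of log2 CPM over the WT mean, and bars give the interquartile range of the genes. Diamonds mark the 3 libraries with atrial transcripts. G-line HOM lies at -0.62 to -0.24, and each diamond is the lowest library of its group.

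Homozygous and heterozygous hearts of the G-line were compared directly, without WT libraries in the contrast. Of the 38 genes 24 fell and 0 rose, against 14.6% of all genes called in either direction and 8.42% called lower. All 38 log2 fold changes were below 0 (median -0.41, against 0.04 over all genes tested), and 32 genes had every G-line HOM library below every G-line HET library, against 17.1% of all genes. Calls were made for 13 of 16 matrix-arm genes, 11 of 20 membrane-arm genes and 6 of 7 core genes. Ndufs1 was the core gene that did not pass (-0.30, adjusted p = 0.14, and 0.0215 without G-line HOM replicate 3). This comparison and the one with WT share the G-line HOM libraries.

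Ndufs7 had 62.5, 61.0 and 46.0 CPM in G-line HOM, against 129, 100.2 and 107 CPM in G-line HET. All G-line HOM libraries lay far below all G-line HET libraries, and the log2 fold change between the G-line groups was -0.99 ± 0.14 (adjusted p = 0.00156). Ndufa8 had 96.6, 112 and 108 CPM in G-line HOM, against 178, 173 and 169 CPM in G-line HET (-0.72 ± 0.10, adjusted p = 0.00183). Ndufv3 had 104, 120.2 and 136 CPM in G-line HOM, against 197, 199 and 207 CPM in G-line HET (-0.74 ± 0.12, adjusted p = 0.00242). In each of these 3 genes the G-line groups were far apart. Ndufa11, a membrane-embedded subunit of the proximal arm, had 119, 134 and 104 CPM in G-line HOM, against 214, 159 and 215 CPM in G-line HET (-0.72 ± 0.14, adjusted p = 0.00683). Against WT (131, 153 and 146 CPM) the G-line HOM libraries of Ndufa11 overlapped and its change was -0.27 (95% interval -0.60 to 0.06, adjusted p = 0.196).

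Calls of Ndufa11, Ndufa6, Ndufa8, Ndufb10, Ndufb7, Ndufs7, Ndufs8 and Ndufv3 stood without any 1 library, and these 8 passed under every alternative run for this comparison. The count was 8 without G-line HOM replicate 1, 10 without G-line HOM replicate 2, 8 without G-line HET replicate 1, 13 without G-line HET replicate 2 and 10 without G-line HET replicate 3. Without the libraries with Myl7 transcripts it was 14, without those with high Arntl 10. The WT libraries enter here through the count filter, the TMM factors and the shared estimate of spread. With the pair that carries both titles left out the count was 14.

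**Figure D4:**
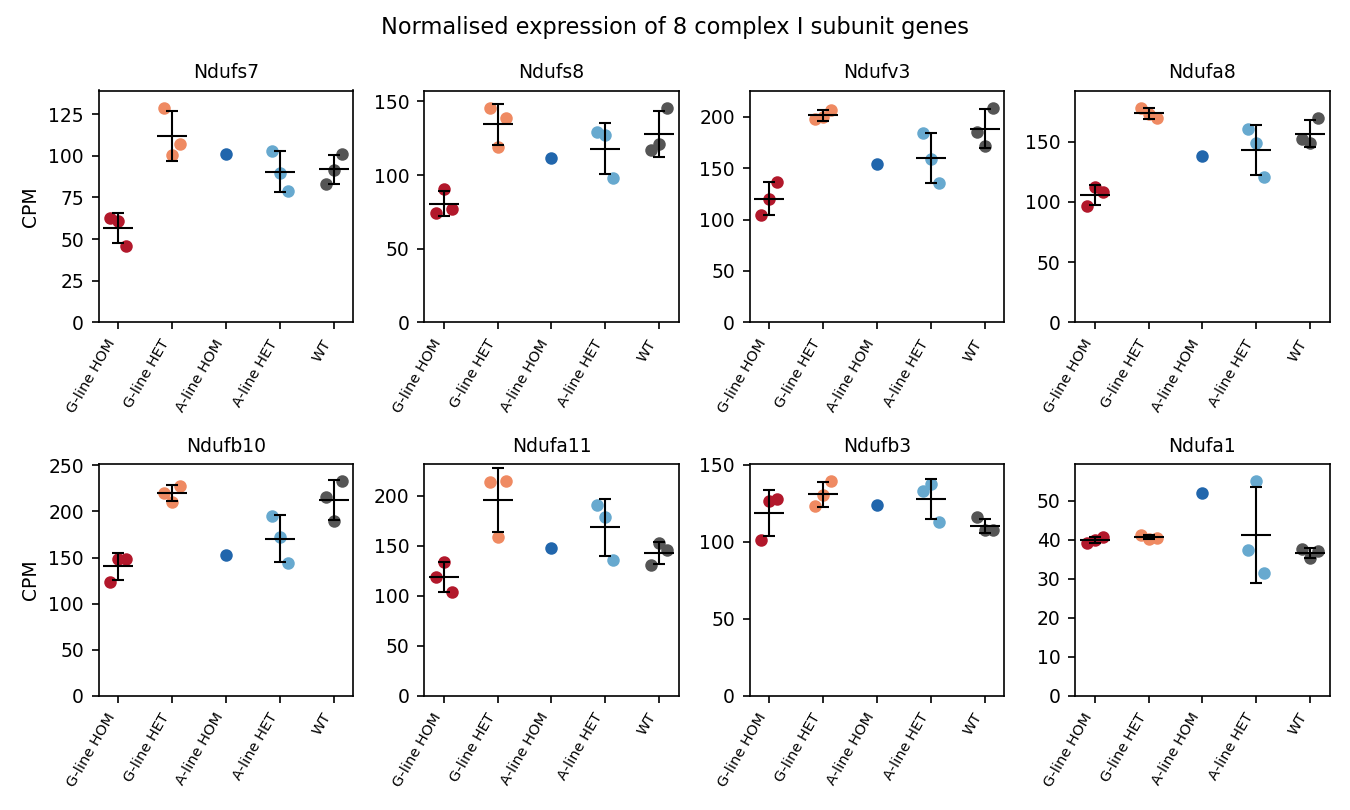
Points give the CPM of 8 genes in each library, with the mean and SD of the 3 libraries of a group in black and a single point for A-line HOM. All G-line HOM libraries lie below all others in Ndufs7, Ndufs8 and Ndufa8. In Ndufb10 its highest library (149 CPM) is above the lowest of A-line HET (144 CPM), in Ndufv3 these meet (136 CPM each), and in Ndufb3 and Ndufa1 it is not below WT.

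No member passed the test in G-line HET against WT. In edgeR's quasi-likelihood test 0 of 38 genes were called, against 7.51% of all genes, 2 had an unadjusted p under 0.05, and DESeq2 called 1. The median log2 fold change was 0.06. Ndufa11 came nearest, with 214, 159 and 215 CPM in G-line HET, against 131, 153 and 146 CPM in WT. Each G-line HET library was above each WT library (0.45 ± 0.14, adjusted p = 0.0722), and this is the gene that DESeq2 called. Ndufb3 had 123, 131 and 139 CPM in G-line HET, against 116, 107 and 108 CPM in WT (0.25 ± 0.10, adjusted p = 0.173). Ndufs7 had a log2 fold change of 0.29 ± 0.14 (adjusted p = 0.227). For the core gene Ndufs8 the difference was 0.07 with a 95% interval of -0.22 to 0.36, so that a change of the size measured in G-line HOM lay outside it. For Ndufs1 the interval ran from -0.43 to 0.17. Ndufa11 was the 1 gene called without G-line HET replicate 2 (adjusted p = 0.0297) or without A-line HET replicate 3 (0.0419).

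In the A-line no member was called either. A-line HET had 0 of 38 called, against 7.96% of all genes, with 2 at an unadjusted p under 0.05 and 0 called by DESeq2. Its median was -0.11. Ndufb10 had 195, 172 and 144 CPM in A-line HET, against 216, 189.7 and 233 CPM in WT, so that 1 A-line HET library lay within the WT range (-0.32 ± 0.12, adjusted p = 0.114). Ndufs3 had 195, 144 and 141 CPM in A-line HET, against 201, 179.7 and 205 CPM in WT (-0.29 ± 0.13, adjusted p = 0.195). Ndufb3 had 133, 138 and 113 CPM in A-line HET, against 116, 107 and 108 CPM in WT (0.21 ± 0.10, adjusted p = 0.261). Without A-line HET replicate 1, 2 genes were called lower, Ndufb10 (adjusted p = 0.0295) and Ndufs3 (0.0172). For Ndufs1 the 95% interval ran from -0.52 to 0.08, which includes the value measured in G-line HOM.

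A-line HOM was 1 library, whose spread was assumed to be that of the other groups. Of 38 genes 0 were called, against 4.68% of all genes, with 2 at an unadjusted p under 0.05 and 0 called by DESeq2, and the median was -0.12. Ndufb10 had 153 CPM in A-line HOM, below all WT libraries (216, 189.7 and 233 CPM), with a log2 fold change of -0.47 ± 0.17 (adjusted p = 0.135). Ndufa1 had 52.1 CPM in A-line HOM, above all WT libraries (37.6, 35.2 and 37.2 CPM), at 0.51 ± 0.20 (adjusted p = 0.186). Ndufv3 had 154 CPM in A-line HOM, against 185, 171 and 209 CPM in WT (-0.29 ± 0.17, adjusted p = 0.398). Without A-line HET replicate 2, Ndufa1 was called higher at an unchanged log2 fold change of 0.51. That left-out library had 55.0 CPM of Ndufa1, above A-line HOM, against 37.3 and 31.5 CPM in A-line HET replicates 1 and 3. Ndufs7 had 101 CPM in A-line HOM, and its interval against WT ran from -0.30 to 0.58.

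Heterozygotes of the lines were set against each other to ask whether the mutations differ. In A-line HET against G-line HET 0 of 38 genes were called, against 0.0284% of all genes, with 5 at an unadjusted p under 0.05 and 0 called by DESeq2. The median was -0.14, and 36 of 38 differences were below 0. Ndufb10 had 195, 172 and 144 CPM in A-line HET, against 220.3, 211 and 228 CPM in G-line HET (-0.37 ± 0.12, adjusted p = 0.21). Ndufv3 had 184, 159 and 136 CPM in A-line HET, against 197, 199 and 207 CPM in G-line HET (-0.33 ± 0.12, adjusted p = 0.272). Ndufa8 had 160.1, 149 and 120.4 CPM in A-line HET, against 178, 173 and 169 CPM in G-line HET (-0.28 ± 0.10, adjusted p = 0.283). In these 3 genes the groups did not overlap. Every A-line HET library lay below every G-line HET library in 9 of 38 members, against 8.06% of all genes. None of the 38 passed the test, and Ndufb10 was called lower without A-line HET replicate 1 (adjusted p = 0.0415).

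Genes that build or work beside complex I were examined from lists. Of 17 assembly factors tested, 6 fell (35.3%) and 0 rose in G-line HOM against WT (median -0.38), and 8 fell (47.1%) against G-line HET (median -0.49). Over all genes, 13.3% were called lower against WT and 8.42% against G-line HET. Ndufaf4, an early assembly factor, had 27.8, 37.3 and 42.8 CPM in G-line HOM, against 57.8, 53.2 and 55.3 CPM in WT. It fell by 0.63 ± 0.13 on the log2 scale (adjusted p = 0.00298), without overlap. Ecsit, part of the intermediate-assembly complex of the membrane arm, had 30.8, 31.6 and 31.6 CPM in G-line HOM, against 44.8, 42.5 and 46.4 CPM in WT (-0.51 ± 0.11, adjusted p = 0.0033). Tmem186 (-0.39 ± 0.10, adjusted p = 0.0127) and Timmdc1 (-0.42 ± 0.12, adjusted p = 0.0154) also fell. Tmem186 lost its call without G-line HOM replicate 1 (0.0625) or WT replicate 3 (0.054), and Timmdc1 without G-line HOM replicate 1 (0.0744), G-line HOM replicate 2 (0.0598), WT replicate 1 (0.0529) or WT replicate 3 (0.0667).

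Nuclear genes of the other respiratory complexes were lower as well. Of 42 genes of complexes II to V, 21 fell (50%) and 0 rose in G-line HOM against WT (median -0.39), and 19 fell (45.2%) against G-line HET (median -0.38). The shares of all genes called lower were 13.3% and 8.42%. Uqcrc1, a core subunit of complex III, had 442, 498 and 551 CPM in G-line HOM, against 812, 800.5 and 919.9 CPM in WT (-0.76 ± 0.15, adjusted p = 0.00201). Atp5g1, which encodes the rotor ring subunit of ATP synthase, had 453, 556 and 558 CPM in G-line HOM, against 860.2, 789 and 978 CPM in WT (-0.74 ± 0.14, adjusted p = 0.0012). Cox8b and Cox4i1, of complex IV, fell by 0.65 ± 0.12 (adjusted p = 0.00126) and 0.49 ± 0.10 (adjusted p = 0.0027). Of 23 genes of mitochondrial membranes, import and matrix, 13 fell and 1 rose against WT (60.9% called, against 26.4% of all genes, median -0.46). Opa1, which fuses inner membranes, had 157, 185 and 209 CPM in G-line HOM, against 313, 273 and 311 CPM in WT (-0.70 ± 0.12, adjusted p = 0.000739). Phb2, Vdac1 and Timm44 fell by 0.57, 0.67 and 0.58. The gene that rose was Lonp1, the matrix protease, with 154, 163 and 154 CPM in G-line HOM, against 114, 122 and 132 CPM in WT (0.36 ± 0.09, adjusted p = 0.0104). Whether complex I genes differed from these lists was not tested. Of the 15 genes named from the assembly, respiratory, mitochondrial and regulator lists as lower in G-line HOM against WT, 9 were called with the shared pair left out (all but Cox4i1, Ecsit, Polrmt, Timmdc1, Tmem186 and Uqcrc1), and Esrrg, Opa1 and Vdac1 with the pair as A-line HOM.

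Of 14 regulators of respiratory genes, 3 fell and 0 rose in G-line HOM against WT (21.4%). This share lay between the 13.3% of all genes called lower and the 26.4% called in either direction. Esrrg, an oestrogen-related receptor that drives oxidative genes, had 35.4, 41.3 and 40.6 CPM in G-line HOM, against 56.2, 51.7 and 54.0 CPM in WT. It fell by 0.47 ± 0.10 on the log2 scale (adjusted p = 0.0027), without overlap, and passed under every alternative. Ppara, the receptor for fatty acids, fell by 0.35 ± 0.09 (adjusted p = 0.0108, and 0.0555 without WT replicate 1), and Polrmt, the mitochondrial RNA polymerase, by 0.71 ± 0.18 (adjusted p = 0.01, and 0.0564 without WT replicate 3). Esrra fell against G-line HET (-0.76 ± 0.19, adjusted p = 0.0194, and 0.0699 without G-line HET replicate 1) and had -0.43 ± 0.19 against WT (adjusted p = 0.111). Log2 fold changes against WT of the others were 0.11 for the coactivator Ppargc1a, -0.09 for Ppargc1b, 0.21 for Pprc1, -0.42 for Esrrb, 0.06 for Nrf1, -0.21 for Gabpa, 0.05 for Gabpb1, 0.04 for Yy1, -0.11 for Tfam and -0.31 for Tfb2m, and none passed the test.

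In G-line HET against WT, Ppargc1a rose, with 152, 193 and 190.1 CPM in G-line HET, against 146, 122 and 120.5 CPM in WT (0.47 ± 0.13, adjusted p = 0.0375), and Gabpa, a subunit of an ETS-family activator of respiratory genes, fell (-0.35 ± 0.09, adjusted p = 0.0256). These 2 were 14.3% of the 14 regulators, against 7.51% of all genes called in either direction. Ppargc1a lost its call without G-line HOM replicate 2 (0.0551), G-line HET replicate 2 (0.115), G-line HET replicate 3 (0.129), WT replicate 2 (0.103) or WT replicate 3 (0.147). Gabpa lost it without G-line HET replicate 1 (0.13), G-line HET replicate 3 (0.0625), WT replicate 1 (0.108) or WT replicate 3 (0.0655). In A-line HET against WT, 2 of 17 assembly factors fell (11.8%), against 7.96% of all genes called in either direction and 3.97% called lower. They were Ndufaf4 (-0.47 ± 0.13, adjusted p = 0.0447) and Tmem186 (-0.38 ± 0.11, adjusted p = 0.041). Of the 23 mitochondrial genes 4 fell (17.4%), Opa1 (-0.47, adjusted p = 0.0288), Phb2 (-0.37, adjusted p = 0.038), Mfn1 (-0.39, adjusted p = 0.0412) and Tomm70a (-0.35, adjusted p = 0.0456). All 6 calls ended without A-line HET replicate 3, the library with Myl7 transcripts, where adjusted p was 0.192 for Ndufaf4, 0.191 for Tmem186, 0.139 for Opa1 and 0.18 for Phb2. Opa1 lost its call also without A-line HET replicate 2 (0.11), WT replicate 1 (0.11) or WT replicate 3 (0.114). The other 5 did so without any of these 3 libraries, G-line HOM replicate 2 or any G-line HET library (0.0509 to 0.173). Ndufaf4 and Tmem186 lost theirs also without WT replicate 2, Ndufaf4 and Tomm70a without A-line HOM replicate 1, and Ndufaf4 without A-line HET replicate 1. Lonp1 had 184 CPM in A-line HOM, against 114, 122 and 132 CPM in WT (0.59 ± 0.13, adjusted p = 0.0183, and 0.0599 without WT replicate 1). This call ended under each other treatment of the shared pair, at an adjusted p of 0.09 with the pair left out, 0.986 with it as A-line HOM and 1.0 with it in both groups. The 2 calls in G-line HET and the 6 in A-line HET also ended with the pair left out or taken as A-line HOM.

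Promoter sequences show which members share short sites of factors known to act on respiratory genes. RefSeq windows of 300 bases around the gene start (GRCm38.p6) were found for 34 of the 38 members. On both strands, GCGCATGC, letters of NRF1 sites, stood in 3 of 34 windows (8.82%) and in 2.80% of all 27025 windows. AAGGTCA, letters of oestrogen-related receptor sites, stood in 3 of 34 (8.82%) and 4.66% of all. CCGGAAG, letters of GABP sites, stood in 4 of 34 (11.8%) and 9.12% of all. AAGATGGC, letters of YY1 sites, stood in 7 of 34 (20.6%) and 2.88% of all. No searched motif contains another, but GCGCATGC overlaps its own reverse complement in Ndufa11. A match describes the letters and does not show that a factor binds.

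The 3 members with NRF1 letters are shown from 120 bases before the start to 1 base before it, since Ndufa8 had the smallest adjusted p in G-line HOM against WT, Ndufa6 kept its call under every alternative, and Ndufa11 passed the test against G-line HET and not against WT. They lie on the minus strand at chr2:36049339-36049458 (Ndufa8), on the minus strand at chr15:82354292-82354411 (Ndufa6) and on the plus strand at chr17:56717642-56717761 (Ndufa11) of GRCm38.p6. Capitals mark the NRF1 letters on either strand.
Ndufa8: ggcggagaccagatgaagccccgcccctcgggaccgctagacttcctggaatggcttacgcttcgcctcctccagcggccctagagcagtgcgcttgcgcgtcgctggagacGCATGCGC
Ndufa6: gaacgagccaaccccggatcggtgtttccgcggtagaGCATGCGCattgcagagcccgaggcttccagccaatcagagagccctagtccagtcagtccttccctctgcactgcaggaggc
Ndufa11: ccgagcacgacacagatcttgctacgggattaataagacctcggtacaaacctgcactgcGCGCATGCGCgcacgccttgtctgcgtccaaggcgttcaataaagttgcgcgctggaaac
The letters end at the base before the start in Ndufa8 and lie further upstream in Ndufa6 and Ndufa11.

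All 7 YY1 matches lay on the strand of the gene, 22 to 45 bases after the start, and in all 7 the ATG within the letters was the start codon annotated in GENCODE M21. They are shown as windows of 30 bases because the position was the same in each relative to the start codon. Capitals mark the searched letters. The windows lie in GRCm38.p6 at chr7:3617377-3617406 on the plus strand (Ndufa3), chr6:126849104-126849133 on the minus strand (Ndufa9), chr19:44555393-44555422 on the minus strand (Ndufb8), chr3:51408922-51408951 on the minus strand (Ndufc1), chr13:114388048-114388077 on the minus strand (Ndufs4), chr13:73328438-73328467 on the minus strand (Ndufs6) and chr10:80249455-80249484 on the plus strand (Ndufs7).
Ndufa3: cttgtcgccgccaagaacAAGATGGCcggg
Ndufa9: cgtgaggcattgtgggagAAGATGGCggcc
Ndufb8: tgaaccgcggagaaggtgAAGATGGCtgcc
Ndufc1: aggcggagcctgcggaacAAGATGGCgccg
Ndufs4: ctggcgtttgcctacaggAAGATGGCggcg
Ndufs6: gggtcaagggtcaccggcAAGATGGCggcg
Ndufs7: tgtctgaaggccgaggccAAGATGGCggcg
Of these genes, Ndufa3, Ndufa9, Ndufb8, Ndufc1, Ndufs4 and Ndufs7 fell in G-line HOM against WT and Ndufs6 did not pass the test. Among all 38 members 22 fell, and 13.3% of all genes were called lower. Whether members with the letters differed from the others was not tested. Yy1 itself had 47.5, 50.9 and 52.2 CPM in G-line HOM, against 48.2, 50.2 and 47.6 CPM in WT.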

How the data were processed

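Per the labels' protocols, TRIzol extracts were treated with DNase I and sequenced after Illumina TruSeq total RNA Gold preparation. The submitters' processing notes name bcl2fastq 2.20.0.422, Trimmomatic 0.39, STAR 2.7.4a and mm39 (GRCm39), with no roles. The authors deposited whole-number raw counts per gene symbol, used here as deposited. Not given in the sources used here are the counting program, the annotation and the use of strand, so that reads from the 10 members that overlap another RefSeq gene (such as Ndufs1 with Ino80dos, Ndufv2 with Ankrd12 and Ndufb11 with Rbm10) cannot be assigned with certainty, nor can those shared between Ndufb4, Ndufs5, Ndufs6 or Ndufab1 and their copies.

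Groups and replicate numbers came from sample titles. Symbols were kept at 0.422 CPM or more in at least 3 libraries and at least 15 counts in total, which left 17588 genes. All 13 libraries entered 1 group-means fit in edgeR 4.0.16 (R 4.3.3), with TMM factors and robust quasi-likelihood dispersions. Tests were two-sided F tests, adjusted by Benjamini-Hochberg over all genes tested, and a call is an adjusted p under 0.05. DESeq2 1.42.0 was an alternative. CPM values, SE and 95% intervals were computed here; the intervals use the 8 residual degrees of freedom, without the moderation of the test, and are wider than its p-values imply, and the code was tested on simulated data. Not overlapping means that every library of 1 group lies beyond every library of the other.

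The members, the lists, the treatment of the shared pair and the left-out libraries were chosen with earlier results of these data known. Counts and medians cover all 38 members, 1 of which is not reported by name here. Named members are the other nuclear core genes, Ndufa4, the next 8 by adjusted p in G-line HOM against WT and up to 3 in each other comparison. Of other lists, up to 4 per comparison were named by adjusted p, and all regulators. Ndufb7, and Ndufa11, Ndufb3 and Ndufa1 in the G-line HOM comparisons, were given in full after their values were seen, as was Lonp1 in G-line HOM, for which no alternatives were run. Mitochondrially encoded subunits were not analysed here. Of 7 related genes outside the symbol rule 6 were found, at most 6.57 CPM in any library, and 0 of the 5 tested were called in any comparison. Sequences came from RefSeq on GRCm38.p6, and no coordinates were taken from mm39.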

Additional observations from a re-analysis of the deposited data

How the results depend on the processing

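In G-line HOM against WT, 22 members were called, and between 17 and 22 under other size factors, DESeq2, no or a stricter filter, genes of mitochondria, ribosomal RNA and the sex chromosomes (Xist and Y-linked) left out, the 2 groups alone, the pair in both groups and the Myl7 libraries left out. The count was 5 with the shared pair left out, 1 with the pair as A-line HOM and 9 without the high-Arntl libraries. In G-line HOM against G-line HET, with 24 called, it was 14 with the pair left out, 11 with the pair as A-line HOM, 14 without the Myl7 libraries and 10 without the high-Arntl libraries. Leaving out 1 library gave 10 to 27 and 8 to 29 calls in these comparisons, 0 to 1 in G-line HET against WT, 0 to 2 in A-line HET against WT, 0 to 1 in A-line HOM against WT and 0 to 2 in A-line HET against G-line HET. In G-line HET against WT 1 member was called by DESeq2 and 2 with only those 2 groups, and in A-line HOM against WT 1 was called without the Myl7 libraries and 1 without the high-Arntl libraries. Same-numbered libraries had correlations of -0.266 to 0.149. Whether the numbers pair samples cannot be decided from these values, since differently numbered libraries were not compared. A replicate block gave 19 and 14 calls in the G-line HOM comparisons and changed no other count, and it ended the call of Lonp1 in A-line HOM. Of 3167 single-gene values, 2699 stayed on their side, 433 lost and 35 gained a call, and 0 reversed. With 1 to 3 libraries a group, changes of the size measured in most members are near what the spread lets pass.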

Other observations

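Members differed in which library of a group was lowest. Ndufa11, Ndufa13, Ndufa2, Ndufa7, Ndufb7, Ndufs7 and Ndufv1 were the 7 members lowest in G-line HOM replicate 3 among the G-line HOM libraries, although that library was the highest of its group in 29 of 38 members. All 7 were also lowest in WT replicate 1 among the WT libraries, together with Ndufb11 and Ndufs8. The principal transcripts of these 9 genes had a median GC content of 56.7% (51.7 to 60.4%), against 50.8% (42.0 to 56.0%) in the other 28 with an annotated transcript. The genes were chosen after their values were seen, these shares describe 38 genes in 13 libraries, and the part of GC content in the comparisons was not tested.

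Esrra and Polrmt, 2 of the 14 listed regulators outside the family, were also lowest in G-line HOM replicate 3 and WT replicate 1. How many of the 14 share this was not counted, and the GC content of regulators was not examined. Esrra had 33.6, 32.5 and 20.7 CPM in G-line HOM, against 35.1, 41.2 and 40.9 CPM in WT, and Polrmt had 9.85, 8.62 and 8.12 CPM in G-line HOM, against 11.3, 15.2 and 17.0 CPM in WT.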
